A study of Homo sapiens with 4 samples.

Results

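The replication-independent histone variants were followed as a group of 8 genes among the 19801 listed in each expression table. The rule lists them by name and sets no threshold on their values, and they are H3-3A and H3-3B (Entrez Gene 3020 and 3021), H2AZ1 and H2AZ2 (3015 and 94239), H2AX (3014), MACROH2A1 (9555), H2AJ (55766) and H1-10 (8971). The older symbols in the source annotation were matched to current ones through the Entrez numbers, and all 8 genes had a value in every library. The cells were LNCaP, an androgen-sensitive human prostate cancer line grown with serum. They received an empty vector or a plasmid for AR1-651, a shortened receptor construct without a ligand-binding domain, for 24 h. They were then kept for the next 12 h with or without Ailanthone (AIL), a natural small molecule found in a screen of natural compounds. The 4 libraries, here named as they were labelled, are empty vector and AR1-651, each without AIL or with it (+ AIL). With only 1 library in each condition, the differences below cannot be set against a spread between replicates, and they carry no p-value. Where 4 values follow each other without labels, the first pair is from empty vector cells without and with AIL and the second from AR1-651 cells without and with AIL.

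A nucleosome winds DNA around histones H2A, H2B, H3 and H4, and most copies of these proteins come from clustered genes that are transcribed as the DNA is copied. The variants described here are made outside S phase as well. H3.3 and H2A.Z are placed by dedicated chaperones at active or regulatory chromatin, and macroH2A lies at silent chromatin. H2AX lies throughout the genome, and its phosphorylated form marks broken DNA. Most mRNAs of the variants carry a poly(A) tail, whereas those of the clustered genes end in a stem-loop. H2AX is a known exception, since its mRNA can take either form.

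H3.3 is encoded by a pair of genes, and the reads that tell them apart also decide how far each value can be trusted. The coding sequences of H3-3A and H3-3B had 411 bases each. They agreed at 323 of them (78.6%) and encoded proteins with 0 differing residues, and their longest shared run was 14 bases. The first 90 bases, read from GENCODE release 29 transcripts, are shown because they make plain how silent differences separate the genes, with the 21 differing bases in capitals.
H3-3A: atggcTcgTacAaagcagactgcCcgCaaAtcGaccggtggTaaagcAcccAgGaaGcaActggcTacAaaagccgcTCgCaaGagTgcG
H3-3B: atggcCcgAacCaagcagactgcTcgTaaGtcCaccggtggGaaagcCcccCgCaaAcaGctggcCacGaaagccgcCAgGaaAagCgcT
A read across such a stretch can be assigned to H3-3A or H3-3B. The same is not true of H3-3A and H3P6 (formerly H3F3AP4), an intronless retrocopy of H3-3A on chromosome 2, whose annotated 411 bases were identical to the H3-3A coding sequence at 411 of 411 positions. Of the 50-base windows of the H3-3A transcript, 34.8% were also found in another transcript of the annotation. That annotation holds 411 bases of H3P6, against a RefSeq gene length of 1059 bases. The parts of H3-3A outside its coding sequence were therefore not compared with the whole copy, and the share is a lower limit. H3P6 had a value of its own in the tables and was listed higher than H3-3A in all 4 libraries, at 378.74 and 180.64 RPKM in empty vector cells without and with AIL, and 376.18 and 238.29 in AR1-651 cells without and with AIL. RPKM is the number of reads scaled to exon length and to all mapped reads. How the authors assigned reads that match both places is not given in the sources used here. Nor is the placing of reads across the exon junctions of H3-3A, which run unbroken in the intronless copy. H3-3A is therefore described both alone and with the reads of H3P6 added.

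The start regions of the genes differ too. They are the 250 bases before the annotated start in RefSeq (GRCh38.p14), where all 8 genes were matched, and are shown for H3-3B, H3-3A and H2AX because these had the largest ranges of level. Capitals mark CCAAT and TATAAA on either strand, letters known as the CCAAT box and the TATA box.
H3-3B, chr17:75779780-75780029, minus strand: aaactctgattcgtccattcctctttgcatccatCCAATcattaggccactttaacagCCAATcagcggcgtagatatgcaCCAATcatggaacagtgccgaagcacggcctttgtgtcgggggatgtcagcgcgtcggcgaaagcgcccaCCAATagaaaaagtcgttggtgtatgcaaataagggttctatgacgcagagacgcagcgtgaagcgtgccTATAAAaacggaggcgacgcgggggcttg
H3-3A, chr1:226062466-226062715, plus strand: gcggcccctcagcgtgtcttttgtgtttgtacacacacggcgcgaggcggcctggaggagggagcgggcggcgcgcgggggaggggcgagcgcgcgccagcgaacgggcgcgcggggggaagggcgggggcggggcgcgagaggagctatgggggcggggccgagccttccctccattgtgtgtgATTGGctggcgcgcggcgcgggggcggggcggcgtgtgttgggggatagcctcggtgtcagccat
H2AX, chr11:119095466-119095715, minus strand: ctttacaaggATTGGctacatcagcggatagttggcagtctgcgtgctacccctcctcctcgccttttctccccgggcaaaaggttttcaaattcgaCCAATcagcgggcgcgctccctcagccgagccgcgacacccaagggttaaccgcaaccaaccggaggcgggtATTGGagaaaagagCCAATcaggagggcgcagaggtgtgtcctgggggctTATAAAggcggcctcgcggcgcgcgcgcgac
H3-3B held 4 CCAAT and 1 TATAAA, H2AX also held 4 CCAAT and 1 TATAAA, and H3-3A held 1 CCAAT and 0 TATAAA. The H3-3A window, the nearest of its 4 to the listed transcript, had 6 GGGCGG, the core of the GC box, against 0 in H3-3B, and a GC content of 75.2% against 52.4%. Among the 8 genes, 7 windows held CCAAT, against 32.0% of all 35116 windows of this length, and H3-3B, H2AX and H2AZ2 each held it 4 times, against 0.874% of windows with at least 4. TATAAA was in 10.7% of all windows and in those of H3-3B, H2AX, H2AZ1 and H1-10. A letter match describes the window and is not a measured binding site.

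The levels of the 8 genes lay far apart. H3-3B was the highest in the empty vector + AIL library (625.99 RPKM), and H2AZ1 in the other libraries (588.99 RPKM for empty vector, then 839.51 for AR1-651 and 644.71 for AR1-651 + AIL). H2AJ was the lowest throughout, at 0.69 to 1.52 RPKM, which is about 12 to 27 reads. With empty vector the order was H2AZ1, MACROH2A1, H1-10, H3-3B, H2AZ2, H3-3A, H2AX and H2AJ. No 2 neighbours in that order had overlapping 95% counting intervals. In each other library 1 of 7 neighbouring pairs overlapped, which were H3-3A and H2AX in both AIL libraries, and H3-3B and H1-10 in the AR1-651 library. These exact intervals rest on read numbers estimated from the smallest RPKM steps in each library and cover counting error only. With H3P6 added, H3-3A moved up in the empty vector order to lie between H2AZ1 and MACROH2A1, at 457.7 RPKM.

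**Figure D1:**
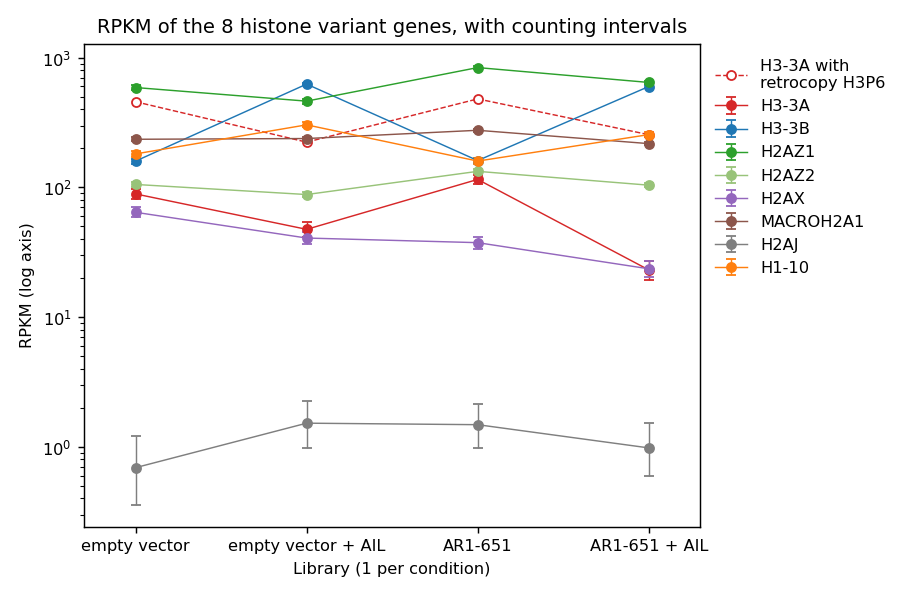
RPKM on a log axis (y) of the 8 genes in the 4 libraries (x). Filled points are the listed values with exact 95% counting intervals, and open points joined by a dashed line are H3-3A with the reads of H3P6. H3-3B is near 160 without AIL (159.49 and 161.04) and near 600 with it (625.99 and 599.51), while H3-3A runs the other way.

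H3-3B rose with AIL whether or not AR1-651 was present. It was listed at 159.49 and 625.99 RPKM in empty vector cells without and with AIL, and 161.04 and 599.51 in AR1-651 cells without and with AIL. Thus the 2 libraries with AIL were close to each other, as were the 2 without, and the sets lay far apart. The RPKM ratio with AIL was 3.92 in empty vector cells (counting interval 3.74 to 4.12) and 3.72 in AR1-651 cells (3.56 to 3.90). On the scale used for all genes, the difference of log2(RPKM + 1), these were 1.97 and 1.89. Only 1.41% of the 14626 genes kept (those that reached RPKM 1 in any library) had a higher change in the first comparison, and 2.52% in the second. H3-3B ranked 401st among all listed genes with empty vector and 97th with empty vector + AIL. About 2167, 8029, 2383 and 9203 reads lay behind the 4 values. Of the 50-base windows of its transcript, 8.28% were also found in another GENCODE transcript, that of H3-5, which was listed at 0.29 RPKM or at 0. AR1-651 made little difference to H3-3B, with ratios of 1.01 without AIL (0.952 to 1.07) and 0.958 with it (0.929 to 0.987). The nearest profiles to H3-3B over the 4 libraries, among 5123 genes at RPKM of at least 10 throughout, belonged to CITED2, RAE1 and AKAP8L. CITED2, a transcriptional coregulator, was listed at 88.04, 344.95, 83.98 and 329.65 RPKM, a distance of 0.0654 on the centred log2 scale.

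H3-3A, which encodes the same protein, was lower with AIL. The table listed it at 89.06 and 47.49 RPKM in empty vector cells without and with AIL, and 115.21 and 23.12 in AR1-651 cells without and with AIL. The 2 libraries with AIL were the lowest, and the spread was widest in AR1-651 cells. Taken alone, H3-3A was 1.88-fold lower with AIL in empty vector cells (1.61 to 2.20) and 4.98-fold lower in AR1-651 cells (4.15 to 6.0), or -0.89 and -2.27 on the log2 scale. In AR1-651 cells 0.520% of genes had a lower change than H3-3A alone, and in empty vector cells 11.4%. With H3P6 added these shares were 6.75% and 8.37%. The number of reads behind these values was small beside H3-3B, at about 487, 245, 686 and 143.

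Most of the reads estimated for this sequence were listed under the retrocopy. Of the reads estimated for H3-3A and H3P6 together, H3P6 held 80.5% and 78.7% in empty vector cells without and with AIL, and 76.1% and 90.9% in AR1-651 cells without and with AIL. Its own RPKM was 2.10-fold lower with AIL in empty vector cells (1.94 to 2.27) and 1.58-fold lower in AR1-651 cells (1.48 to 1.69). Added together, H3-3A and H3P6 came to 457.7, 223.3, 481.4 and 255.1 RPKM on the length of H3-3A. Any read counted at both places is in this sum more than once, and the number of such reads is not known. The sum was 2.05-fold lower with AIL in empty vector cells (1.91 to 2.20) and 1.89-fold lower in AR1-651 cells (1.77 to 2.01). The lower level with AIL was thus present in both backgrounds alone and in sum, whereas the gap between the backgrounds was not. The change with AIL in AR1-651 cells minus that in empty vector cells was -1.38 for H3-3A alone and 0.12 for the sum. Without AIL, the ratio of AR1-651 to empty vector was 1.29 for H3-3A alone (1.15 to 1.46) and 1.05 for the sum (0.996 to 1.11). With AIL, the log2 change between AR1-651 + AIL and empty vector + AIL was -1.01 for H3-3A alone and 0.19 for the sum. Whether the reads listed under H3P6 came from H3-3A mRNA or from the copy cannot be told apart in gene-level values. The nearest profiles to H3-3A alone were those of IFI6, BTD and FADS2, at distances of 0.44, 0.457 and 0.497, far less close than those of H3-3B.

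The make-up of the H3.3 transcripts was shifted with AIL towards H3-3B. On the listed values, H3-3A was 35.8% of the H3.3 RPKM with empty vector (counting interval 33.6 to 38.1), 7.05% with empty vector + AIL (6.24 to 7.93), 41.7% with AR1-651 (39.6 to 43.8) and 3.71% with AR1-651 + AIL (3.15 to 4.36). With H3P6 counted as H3-3A, the shares were 74.2% (73.0 to 75.3), 26.3% (25.1 to 27.5), 74.9% (73.9 to 75.9) and 29.8% (28.7 to 31.0). By either count the H3-3A share was lower in each AIL library than in its control. Which gene was the main one without AIL depended on the copy, since H3-3B exceeded H3-3A alone and H3-3A with H3P6 exceeded H3-3B 2.87-fold. With AIL, H3-3B was the larger by both counts. The summed level was 2.71 and 2.25 times as high with AIL in empty vector and AR1-651 cells on the listed values, and 1.38 and 1.33 times as high with H3P6 included.

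**Figure D2:**
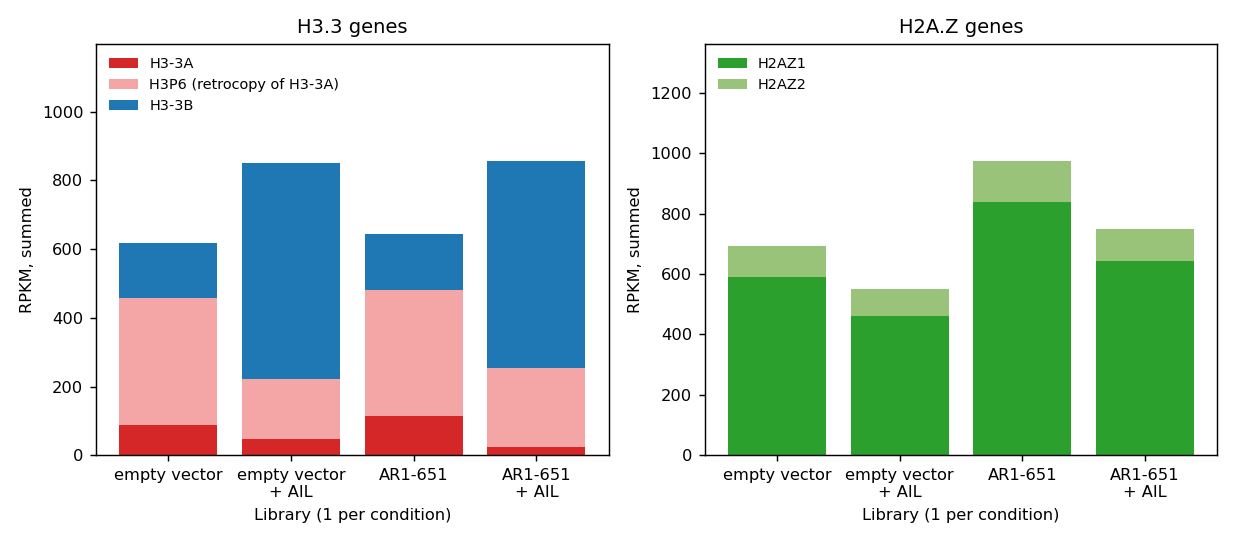
Stacked bars of RPKM (y) in the 4 libraries (x) for the H3.3 genes (left; the H3P6 segment is scaled to the length of H3-3A) and the H2A.Z genes (right). With AIL the H3-3B segment is the tallest of the H3.3 bars, and the H2A.Z bars keep their proportions while their height differs, from 550.63 to 972.52 RPKM.

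The H2A.Z genes, also a pair with nearly the same protein, moved together and little. H2A.Z replaces H2A in nucleosomes beside transcription start sites. H2AZ1 was listed at 588.99 and 462.53 RPKM in empty vector cells without and with AIL, and 839.51 and 644.71 in AR1-651 cells without and with AIL. H2AZ2 was listed at 105.39, 88.10, 133.01 and 104.04 RPKM in the same order. For each gene the AR1-651 library was the highest and empty vector + AIL the lowest. The coding sequences, of 387 bases each, agreed at 311 bases (80.4%) and differed in 3 residues. With AIL the summed level was 0.793 times that of empty vector cells and 0.770 times that of AR1-651 cells. H2AZ1 changed by -0.35 and -0.38 with AIL and H2AZ2 by -0.26 and -0.35, and these signs held under all 7 alternative settings. Of these 7, the addition of H3P6 changes H3-3A only. Its agreement was therefore fixed for H2AZ1, H2AZ2 and every other gene here except H3-3A. The H2AZ1 share of the sum stayed between 84.0% and 86.3%, with no shift of the kind seen for H3.3. Of the 50-base windows of the transcripts, 6.45% for H2AZ1 and 14.8% for H2AZ2 were also found in another GENCODE transcript. These were the pseudogenes H2AFZP3 and H2AFVP1, and how reads that match them were assigned is not known. AR1-651 libraries were higher than their vector controls for H2AZ1, by 0.51 without AIL and 0.48 with it, and for H2AZ2 by 0.33 and 0.24, although the sign of 0.33 turned when RPKM was divided by its sum. None of these values passed 2-fold.

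H2AX, which is phosphorylated beside DNA breaks and there recruits repair factors, was lower with AIL and also lower with AR1-651. It was listed at 64.28 and 40.69 RPKM in empty vector cells without and with AIL, and 37.49 and 23.57 in AR1-651 cells without and with AIL. Empty vector was the highest and the library with both factors the lowest. AIL went with a 1.58-fold lower level in empty vector cells (1.37 to 1.83) and a 1.59-fold lower level in AR1-651 cells (1.34 to 1.90). AR1-651 went with a 1.71-fold lower level without AIL (1.49 to 1.97) and a 1.73-fold lower level with it (1.44 to 2.06). The log2 change with AIL was -0.65 in both backgrounds. Of all genes kept, 19.6% had a lower change than H2AX with AIL in empty vector cells and 12.7% in AR1-651 cells. With AR1-651, 22.1% had a lower change without AIL and 9.31% with it. No H2AX change passed 2-fold on the deposited scale, and all 4 kept their sign under all 7 alternatives, but the size depended on the scaling. The log2 change with AR1-651 was -0.76 in both AIL states, with ranges over the alternatives of -1.13 (past 2-fold, RPKM divided by its sum) to -0.29 without AIL and -0.85 to -0.20 with it. With AIL the ranges were -0.76 to -0.62 in empty vector cells and -0.86 to -0.46 in AR1-651 cells.

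H1-10, a linker histone that binds DNA between nucleosomes, was higher with AIL. Its values were 181.22 and 303.74 RPKM in empty vector cells without and with AIL, and 159.58 and 255.31 in AR1-651 cells without and with AIL, so that both AIL libraries exceeded both others. The ratios with AIL were 1.68 in empty vector cells (1.57 to 1.79) and 1.60 in AR1-651 cells (1.49 to 1.71), or 0.74 and 0.67 on the log2 scale. Of all genes kept, 15.7% and 25.2% had a higher change than H1-10 in these comparisons. AR1-651 gave -0.18 without AIL and -0.25 with it, signs that turned under 2 and 1 of 7 alternatives. A gene on the opposite strand, H1FX-AS1, covers 345 of its 1507 exon bases, and whether counting used the strand is not given in the sources used here.

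MACROH2A1, which carries a large extra domain and marks silent chromatin, had the smallest range, 0.34 on the log2 scale. It was listed at 235.03, 238.14, 275.71 and 217.61 RPKM in the same library order. The change with AIL was 0.02 in empty vector cells, a sign that turned under 4 of 7 alternatives, and -0.34 in AR1-651 cells. H2AJ, an H2A variant known to accumulate in senescent cells, was listed at 0.69, 1.52, 1.48 and 0.98 RPKM. At about 12, 24, 27 and 19 reads its ratios could not be resolved well. The ratio with AIL was 2.20 in empty vector cells (1.02 to 4.65) and 0.662 in AR1-651 cells (0.356 to 1.27).

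**Figure D3:**
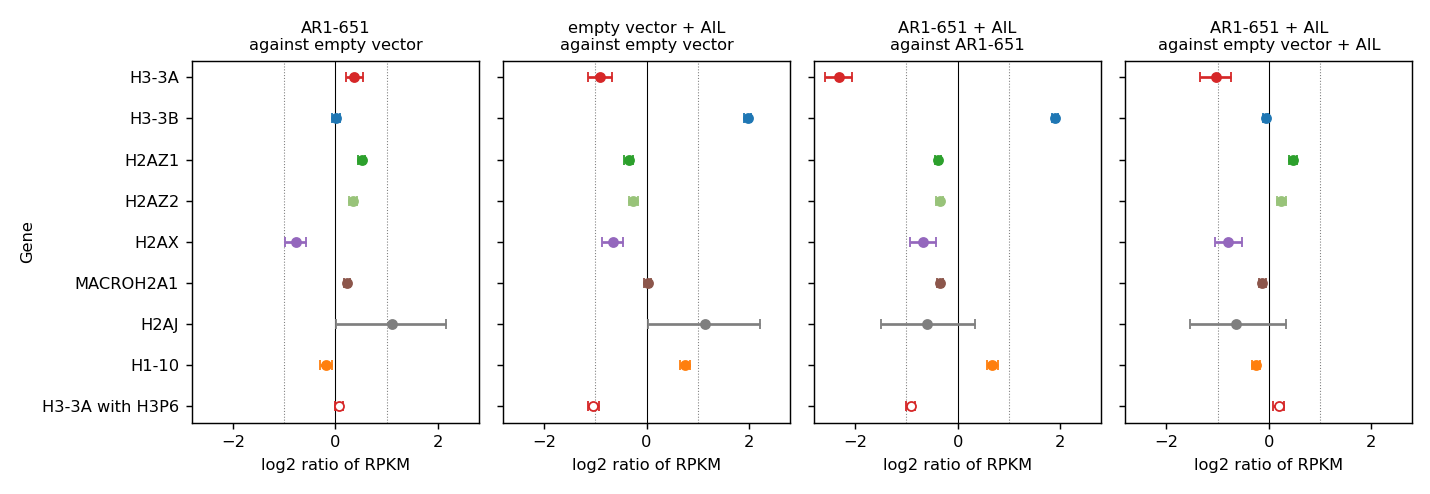
Log2 ratio of RPKM without a pseudocount (x) for each gene (y) in the 4 comparisons, with exact 95% counting intervals as bars and dotted lines at 2-fold. Open points are H3-3A with H3P6. H3-3B has the highest ratio in both AIL comparisons (3.92 and 3.72), H2AJ lies past 2-fold with AIL in empty vector cells with an interval that spans the H3-3B point (2.20, 1.02 to 4.65), and the open H3-3A points lie near a 2-fold lower level in both (2.05 and 1.89).

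The number of the 8 genes past 2-fold was close to the share over all genes. Past 2-fold with AR1-651 against empty vector were 0 of 8 raised and 0 lowered, against 4.01% and 11.6% of all genes kept. With AIL in empty vector cells, 1 of 8 was raised (H3-3B) and 0 lowered, against 9.53% and 9.03%. With AIL in AR1-651 cells, 1 was raised (H3-3B) and 1 lowered (H3-3A), against 14.9% and 5.74%. For AR1-651 + AIL against empty vector + AIL, 0 were raised and 1 was lowered (H3-3A), against 1.46% and 3.53%. With 8 genes, counts of 0 or 1 are no result about the group. With H3P6 added, H3-3A counted as lowered with AIL in empty vector cells and not in AR1-651 cells, with values of -1.03 and -0.91 that lie on either side of the limit. The median change of the 8 genes was 0.28, -0.12, -0.35 and -0.19 in the 4 comparisons, in the order just given, against -0.30, -0.02, 0.13 and -0.03 over all genes. The comparisons share libraries, so their values are not independent. In total RNA from a culture, fewer cells with a transcript and less of it per cell cannot be told apart.

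**Figure D4:**
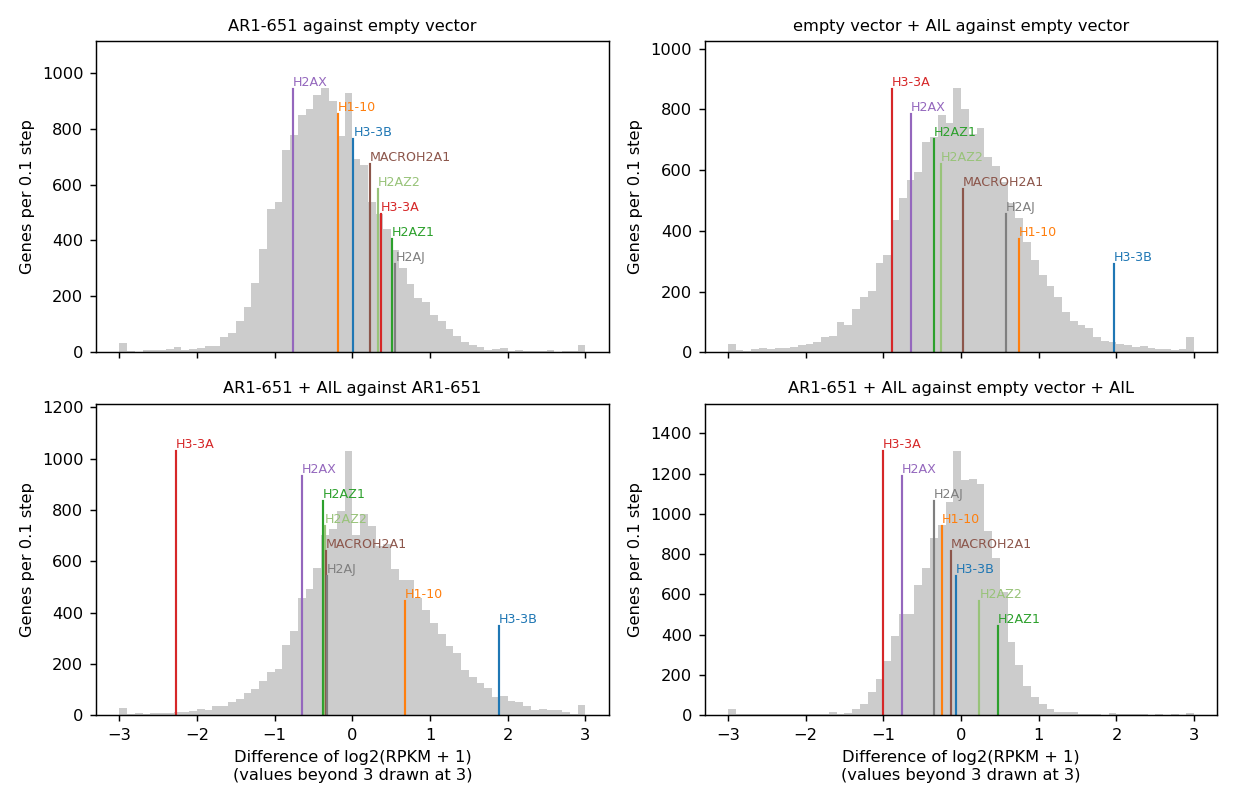
Number of genes (y) by the difference of log2(RPKM + 1) (x) in the 4 comparisons, for the 14626 genes kept (grey), with the 8 histone variant genes as coloured lines whose heights only separate the names. H3-3B lies in the right tail of both AIL comparisons, at 1.97 and 1.89, and H3-3A alone in the left tail for AIL in AR1-651 cells, at -2.27.

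The replication-dependent histone genes gave a contrast. Of 57 in the tables, 50 were kept, and with AIL 35 were raised past 2-fold and 0 lowered in each background. Median changes were 1.63 and 1.27. Over all genes kept, 9.53% were raised and 9.03% lowered in empty vector cells, and 14.9% and 5.74% in AR1-651 cells. Some of the 50 were kept only through a library with AIL, such as H2AC7 (0, 2.72, 0 and 0 RPKM), so the filter favoured raised genes. RPKM of at least 1 was reached by 37, 45, 38 and 45 of the 57. The summed RPKM of all 57, which does not depend on the filter, was 885.98, 3023.91, 1012.03 and 3004.54 in the same library order. Thus H3-3B and, less so, H1-10 moved with AIL in the direction of the clustered genes, and H3-3A, H2AZ1, H2AZ2 and H2AX did not. With AR1-651, 3 of the 50 were raised and 3 lowered without AIL, and also 3 and 3 with it. Over all genes kept, 4.01% were raised and 11.6% lowered without AIL, and 1.46% and 3.53% with it. The 14 S phase and cycling genes did not follow the clustered histones, with median changes with AIL of -0.02 and 0.37, and 0 and 1 (TOP2A) raised. The count in AR1-651 cells became 0 under median-ratio scaling and with the length or GC trend removed. Over all genes, 1582, 1571 and 1245 were raised under these settings, against 2184 on the deposited scale. The S phase count became 3 with RPKM divided by its sum, where 3198 of all genes were raised. It was 2 without ribosomal protein genes in that sum (2787 of all genes), and 2 with a pseudocount of 0.1 (3016 of all genes). SLBP, which binds the stem-loop of clustered histone mRNAs, was listed at 24.46, 35.59, 16.65 and 30.05 RPKM. The library protocol names both ribosomal RNA removal and oligo(dT) selection, and these treat mRNAs without a poly(A) tail differently. Copies with the same sequence, such as H2AC18 and H2AC19, had the same value in all 4 libraries (104.15, 360.88, 124.99 and 288.81 RPKM), so the count of 35 does not stand for 35 separate measurements.

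Among other variants, CENPA, the H3 variant of centromeres, was listed at 4.18, 11.98, 7.77 and 10.61 RPKM and was raised past 2-fold with AIL in empty vector cells. MACROH2A2 was at 24.96 to 30.80 RPKM throughout. H3-5, a retrocopy of H3-3B, was listed at 0.29 RPKM with empty vector and at 0 in the other libraries.

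Several chaperones that place H3.3 were listed lower in the AR1-651 or AIL libraries. Of 7 genes, 4 were lowered past 2-fold with AR1-651 (11.6% of all genes kept) and 2 with AIL in empty vector cells (9.03% of all genes), and 0 were raised in either. With AIL in AR1-651 cells, 2 were raised (ASF1A and ATRX) and 1 lowered (HIRA), against 14.9% and 5.74% of all genes kept. With the GC trend removed these counts were 0 and 0, and 1245 and 974 over all genes. HIRA, the core of the complex that places H3.3 in active genes, was listed at 10.89 and 4.0 RPKM in empty vector cells without and with AIL, and 6.07 and 2.34 in AR1-651 cells without and with AIL. ATRX, which with DAXX places H3.3 in repeats, was listed at 13.70, 5.48, 2.02 and 6.70 RPKM, and DAXX at 21.10 to 23.37 RPKM. ASF1A, which hands H3.3 to HIRA, was listed at 13.20, 20.56, 10.56 and 28.56 RPKM, the highest values being those with AIL. These are mostly long transcripts, and with the trend of change over transcript length removed, 1 of 7 was lowered with AR1-651 and 1 with AIL in empty vector cells, and 1 was raised with AIL in AR1-651 cells. Median-ratio scaling and removal of the GC trend also left 1 of 7 lowered with AR1-651. Over all genes, 547 were lowered with AR1-651 with the length trend removed, 817 with median-ratio scaling and 516 with the GC trend removed. With the length trend removed, 1125 were lowered with AIL in empty vector cells and 1571 raised with AIL in AR1-651 cells.

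Of 11 genes for exchange of H2A.Z, 1 was raised (VPS72) and 2 were lowered (SRCAP and EP400) with AR1-651. Over all genes kept, 4.01% were raised and 11.6% lowered. The calls among the 11 turned with the processing. With the length trend removed 2 were raised and 0 lowered, and with the GC trend removed 4 and 0. With RPKM divided by its sum, 0 were raised and 4 lowered. Over all genes, 698, 1155 and 301 were raised under these settings, and 547, 516 and 4387 were lowered. VPS72, the subunit of the exchange complexes that binds H2A.Z, was listed at 43.24, 131.77, 98.92 and 149.41 RPKM, and SRCAP, the motor of one such complex, at 15.25, 16.91, 5.45 and 7.10 RPKM. With AIL, 1 of 11 was raised in empty vector cells (VPS72) and 0 in AR1-651 cells, with 0 lowered in either. Over all genes kept, 9.53% and 14.9% were raised, and 9.03% and 5.74% lowered. Of 9 genes listed for H2AX signalling and the response to broken DNA, 4 were lowered with AR1-651 and 0 raised, against 11.6% and 4.01% of all genes. ATM, a kinase of H2AX, was at 5.49, 2.13, 1.63 and 3.28 RPKM. With the length or the GC trend removed 0 of 9 were lowered with AR1-651, against 547 and 516 over all genes. With AIL, 1 of 9 was lowered in empty vector cells (ATM), against 9.03% of all genes, a call lost with either trend removed. In AR1-651 cells 2 were raised (ATR and WRN), against 14.9% of all genes. With the GC trend removed 1 was raised, against 1245 over all genes. Of 10 general histone chaperones, 0 passed 2-fold in any of the 4 comparisons on the deposited scale.

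**Figure D5:**
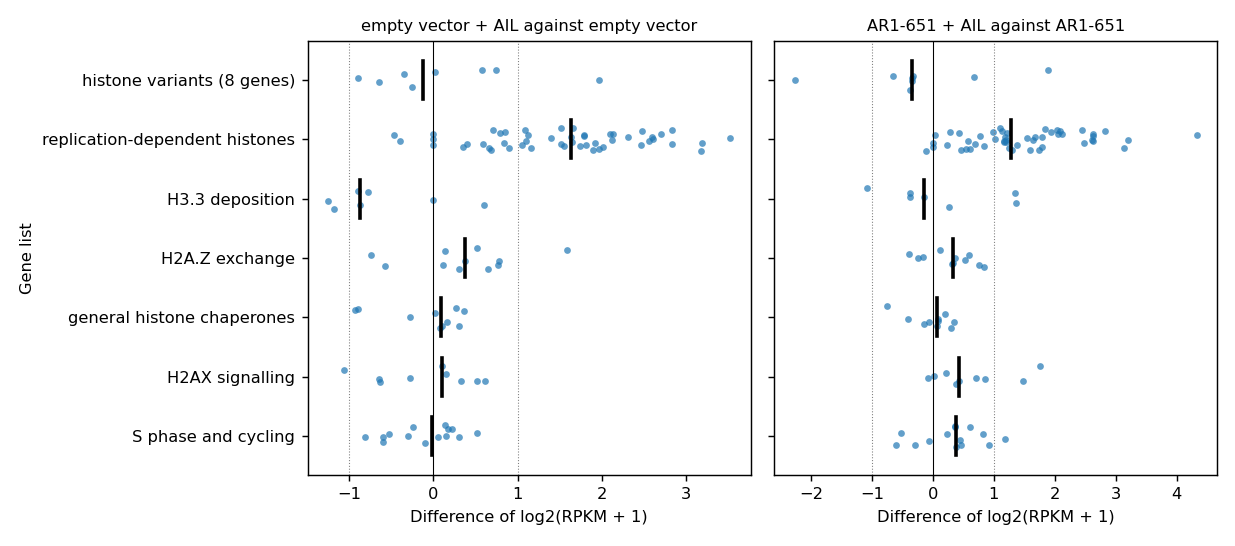
Difference of log2(RPKM + 1) (x) for each gene kept (points) in the 8 histone variants and 6 related gene lists (y), with AIL in empty vector cells (left) and in AR1-651 cells (right). Black bars are medians and dotted lines mark 2-fold. The replication-dependent histones have medians of 1.63 and 1.27, and the 8 variants medians of -0.12 and -0.35.

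The libraries were shallow. From the RPKM worth of 1 read among short genes with 1 transcript, they held about 4740000 to 5670000 mapped reads. By this measure 59.5% to 63.3% of low values lay within 0.15 of a whole read, against 30% if evenly spread, so read numbers are approximate. All 7 luminal prostate markers were at RPKM of at least 1 in every library. Of 3 basal markers 1 had values, KRT14, at 0 to 0.21 RPKM, and the stromal markers summed to 2.88 to 6.30. Of 3 leukocyte markers 2 had values, PTPRC at 0.36 to 0.94 RPKM and CD68 at 8.31 to 12.20. Both KLK3 (286.61 and 1442.16 RPKM) and FKBP5 (7.04 and 62.15 RPKM), which respond to androgen in this line, were higher in the library labelled AR1-651 than with empty vector.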

How the data were processed

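RNA of LNCaP cells under 4 conditions was sequenced, 1 library each. Per the submitters' processing notes, BWA 0.7.10-r789 and hg19 were used. The counting tool and annotation are not given in the sources used here. The authors deposited RPKM per gene, rounded to 2 decimals. RPKM is relative, so a gene set that takes more reads lowers the others.

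Changes are differences of log2(RPKM + 1). Genes that reached RPKM 1 in any library were kept (14626 of 19801). A gene was raised or lowered at 2-fold. Reads per gene were estimated from RPKM, GENCODE release 29 exon length and the worth of 1 read, and gave exact 95% intervals (SciPy 1.17.1, Python 3.11.15). H3P6 reads were added to H3-3A on the RefSeq gene length of 1059 bases. Named genes were the 8 members, genes of the lists, the 3 nearest profiles of the 2 members with the largest range, and KLK3 and FKBP5. Some listed genes are not reported here. H3P6, H2AC18 and H2AC19 were added after their values were seen. Members and lists were chosen with earlier results of these data known. Alternatives were other scalings, pseudocount, threshold, filters, and removal of length and GC trends. The scripts were tested on simulated data.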

Additional observations from a re-analysis of the deposited data

Results flagged for a closer look

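H2AJ and MACROH2A1 had changes with AIL of opposite sign in the 2 backgrounds. For H2AJ, log2(RPKM + 1) changed by 0.58 in empty vector cells and by -0.32 in AR1-651 cells, a difference of -0.90, on about 12 to 27 reads per library. For MACROH2A1 the changes were 0.02 and -0.34, a difference of -0.36. With 1 library per condition the difference was not tested for either gene.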

How the results depend on the processing

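With 1 library per condition, no library could be left out, and differences below the spread of replicates cannot be recognised. No paired analysis was possible because each condition had 1 library. Of the 4 values of the 8 genes past 2-fold, the 2 of H3-3B stayed past it under all 7 alternatives (1.86 to 1.97 with AIL in empty vector cells, 1.46 to 2.08 in AR1-651 cells), and both H3-3A values fell within it under at least 1. Of the 28 values within 2-fold, 24 stayed within it and 21 kept their sign. Of the 7 alternatives, the addition of H3P6 could move the values of H3-3A only.

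Adding H3P6 to H3-3A, an alternative chosen after seeing the data, as was the GC trend, turned the H3-3A change for AR1-651 + AIL against empty vector + AIL from -1.01 to 0.19. The number of the 8 genes past 2-fold became 2 with AIL in empty vector cells, 1 with AIL in AR1-651 cells and 0 for AR1-651 + AIL against empty vector + AIL, and the median change with AR1-651 became 0.15. Median-ratio scaling gave medians of 0.55 with AR1-651 and -0.57 with AIL in AR1-651 cells, a median difference between the changes with AIL of -0.30 (-0.086 as deposited), and 0 genes past 2-fold for AR1-651 + AIL against empty vector + AIL. RPKM divided by its sum gave medians of -0.081 with AR1-651 and -0.17 with AIL in AR1-651 cells, a difference of 0.20, of the opposite sign, and 1 gene past 2-fold with AR1-651. Without ribosomal protein genes in that sum, the medians were 0.12 with AR1-651 and -0.23 with AIL in empty vector cells, the difference was 0.059, also of the opposite sign, and 2 genes passed 2-fold with AIL in empty vector cells. With the GC trend removed, the medians were 0.47 with AR1-651 and -0.46 with AIL in AR1-651 cells, and the difference was -0.30. With the length trend removed, the median with AIL in empty vector cells was -0.22 and 2 genes passed. A pseudocount of 0.1 gave 1 gene past 2-fold with AR1-651 and 2 with AIL in empty vector cells. At 1.5-fold, 1, 4, 4 and 2 of the 8 genes passed in the 4 comparisons. Among the 14626 genes kept, 1570 were raised and 4720 lowered at that limit in the first comparison. The numbers were 3064 and 3233 in the second, 4183 and 2145 in the third, and 1130 and 2271 in the last. Such counts among 8 genes are no result about the group. The causes of these shifts were not tested. Genes raised and lowered with AR1-651 were 586 and 1701 as deposited, 1066 and 817 with median-ratio scaling, and 301 and 4387 with RPKM divided by its sum, as the median of all genes moved from -0.30 to -0.085 and -0.65.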
